A study of Drosophila melanogaster with 6 samples.

Results

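Melanization and clotting were followed through 9 fly genes, picked by symbol from the 17558 genes of the deposited expression table: the prophenoloxidase genes PPO1, PPO2 and PPO3, the protease genes MP1 and Sp7, the dopachrome conversion enzyme genes yellow-f and yellow-f2, and the clotting genes fon and Tg. Melanization is the blackening of wounds and of microbes in the hemolymph, the blood of insects. Serine proteases of a cascade cut prophenoloxidases into active phenoloxidases, which turn phenols into quinones that polymerize into melanin, and serpins hold the cascade in check. The hemolymph also clots, through secreted proteins that a transglutaminase links into a net, so that a wound is sealed.

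RNA was sequenced from adult male Drosophila melanogaster 12 h after they had been injected with Micrococcus luteus, a bacterium whose Gram-positive cell wall is sensed by the Toll pathway. In the first group, 3 libraries came from flies of the genotype Gal80ts; Tub> CR46018, labelled as overexpressing the long non-coding RNA CR46018, and in the second, 3 libraries came from control flies of the genotype Gal80ts; Tub-Gal4/P{CaryP}attP40. Both groups carry Gal80ts, a temperature-sensitive repressor of Gal4, and a driver named for tubulin, a gene active in most cells, and both were injected, so no level in uninjected flies stands beside these values. The sources used here give neither the temperature nor the age of the flies, nor whether replicate libraries were made from separate flies, so p-values reflect only how far these libraries differ, which may be technical. The groups may also differ in genetic background, and this cannot be told apart from overexpression.

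Between 17036854 and 19422794 reads per library were recovered from the deposited values, which are FPKM, read fragments scaled by the length of the gene and the depth of the library. The targeted RNA was barely counted: CR46018 had 3, 1 and 0 reads in overexpression replicates 1, 2 and 3 and 0 reads in each control library, and 3 reads over the control group would be 0.0971 FPKM. These counts do not show the overexpression, since replicate 3 had 0 reads as the controls did, and the groups are called here by their labels. Of 4 male markers, SP, Acp36DE and dj were present. The other, Mst84Da, was nearly absent, with a mean of 0.0488 FPKM in overexpressing flies and 0.252 FPKM in controls. Genes of the female germ line and eggshell, osk, Cp36 and Vm26Aa, had a low summed level. It was 0.0774 to 0.110 FPKM in overexpression libraries and 0.0546 to 0.127 FPKM in control libraries. Among 12251 genes with a mean of at least 1 FPKM, limma on log2(FPKM + 1) called 2.45% higher and 6.31% lower in overexpressing flies at an adjusted p under 0.05. Of the 9 members, all of which passed the filter on low values, 0 were called higher and 1 was called lower, against that background of 8.76% called in either direction. At an unadjusted p under 0.05 there were 3 of 9 members, where 23.5% of all tested genes were under it. Limma-voom on the recovered reads called 1 member higher, Sp7, and 2 lower, yellow-f2 and fon, where it called 3.99% of 12234 genes higher and 8.18% lower (12.2% in either direction). The groups did not overlap in 3 of 9 members, Sp7, yellow-f2 and fon, where 28.4% of all tested genes showed no overlap. By limma calls and by overlap the members as a set stood near the background. The limma-voom calls, 1 higher and 2 lower of 9, were above its background of 12.2%, and this difference was not tested. The median log2 fold change was -0.05 over the members and 0.00 over all genes tested.

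**Figure D1:**
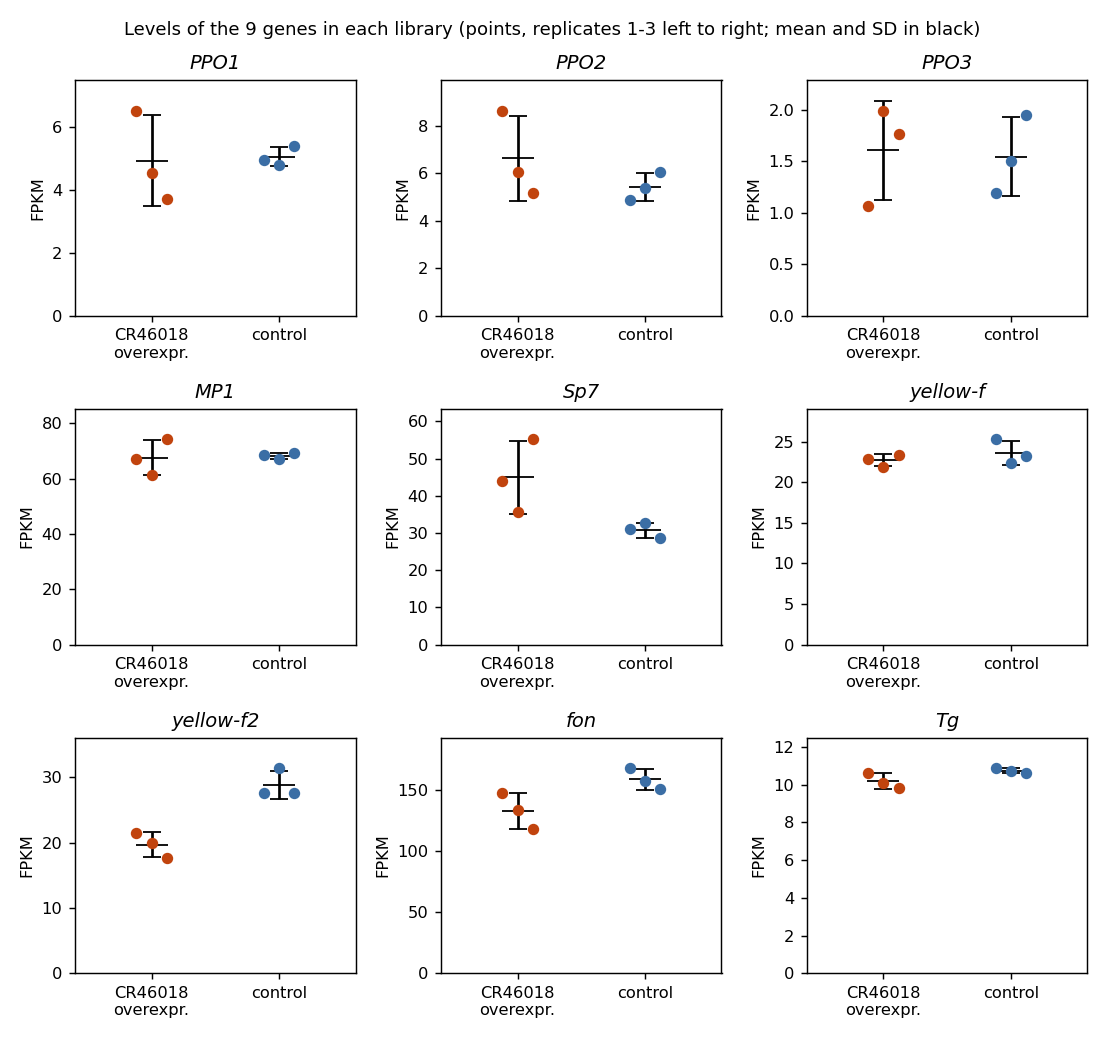
Level of each of the 9 genes in FPKM (y axes, starting at 0) in the 3 CR46018 overexpression libraries (orange, left) and the 3 control libraries (blue, right), with the mean and SD in black. The groups are apart for yellow-f2, fon and Sp7 and overlap for the other 6 genes.

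The order of levels per gene length was led by fon, which averaged 146.0 FPKM over the 6 libraries, followed by MP1 at 67.9 FPKM and Sp7 at 37.8 FPKM. Next came yellow-f2 at 24.3 FPKM and yellow-f at 23.2 FPKM, then Tg at 10.5 FPKM. The prophenoloxidase genes stood at the low end, with PPO2 at 6.02 FPKM, PPO1 at 4.99 FPKM and PPO3 at 1.58 FPKM. Neighbours in this order kept their places in 6 of 6 libraries except for 2 pairs: yellow-f2 was above yellow-f in 3 of 6, and PPO2 was above PPO1 in 5 of 6. Among all tested genes, fon lay at percentile 95.03 and PPO3 at percentile 6.34.

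The zymogens themselves, PPO1, PPO2 and PPO3, did not pass the test. PPO1 and PPO2 encode the prophenoloxidases of crystal cells, the blood cells that hold melanizing enzymes in the larva. The gene PPO1 (dm6, chromosome 2R, 17887220 to 17889973, minus strand, 6 exon blocks) stands in the table under an older identifier, FBgn0261362. It was matched by its exonic length of 2338 bp, which 2 current genes share, and the other of them, CG14205, has a row of its own. PPO1 measured 6.53, 4.55 and 3.72 FPKM in overexpression replicates 1 to 3, from 314, 213 and 166 reads, against 4.96, 4.80 and 5.40 FPKM in control replicates 1 to 3. Overexpression replicate 1 was the highest of the 6 and replicate 3 the lowest, so the control values lay between them.

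The log2 fold change of PPO1 was -0.06 ± 0.16 (SE, n = 3 per group), with a 95% interval of -0.42 to 0.31 (limma adjusted p = 0.879). PPO2 (chromosome 2R, 9042261 to 9044709, minus strand, 4 exon blocks) measured 8.63, 6.06 and 5.15 FPKM in overexpression replicates 1 to 3, against 4.86, 5.39 and 6.03 FPKM in controls. Its overexpression libraries stood in the same order as those of PPO1, with replicate 1 highest, and the groups overlapped. The log2 fold change was 0.22 ± 0.16 (interval -0.14 to 0.59, limma adjusted p = 0.454), and without overexpression replicate 1 it was 0.04.

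Libraries of overexpressing flies were less alike for both genes than control libraries. The coefficient of variation of PPO1 was 29.3% among overexpression libraries and 6.08% among control libraries, where counting error alone would give 6.58% and 6.75%. For PPO2 it was 27.3% among overexpression libraries and 10.9% among control libraries, against 5.75% and 6.60% from counting. The difference in spread between the groups was not tested.

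Despite this spread, the ratio of PPO2 to PPO1 varied little within a group. Counting error in overexpression libraries was 6.58% for PPO1 and 5.75% for PPO2, so the closeness of 3 such ratios is not read further. It was 1.32, 1.33 and 1.38 in overexpression replicates 1 to 3, against 0.979, 1.12 and 1.12 in control replicates 1 to 3. All 3 overexpression libraries lay above all 3 control libraries. The mean ratio was 1.35 ± 0.0326 in overexpressing flies and 1.07 ± 0.0809 in controls (SD, n = 3), a difference of 0.33 on the log2 scale. An exact two-sided permutation test gave p = 0.1, the smallest that 3 against 3 libraries allow. Such a ratio of 2 genes is independent of how libraries were scaled. Over all pairs of tested genes above 0 in every library, ratios did not overlap between the groups in 29.7%, so a separation of this kind is common in these data.

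PPO3 (chromosome 2R, 23064769 to 23067183, plus strand, 4 exon blocks) encodes the prophenoloxidase of lamellocytes, flat blood cells that larvae make around parasites. It measured 1.07, 1.99 and 1.76 FPKM in overexpression replicates 1 to 3, against 1.19, 1.50 and 1.95 FPKM in controls, and the groups overlapped. These levels rest on 49 to 89 reads per library. The log2 fold change was 0.03 ± 0.18 (interval -0.38 to 0.43, limma adjusted p = 0.948). The sign of such small differences followed the settings for 5 members: it turned for PPO1, MP1, yellow-f and Tg when FPKM were rescaled to a common total, and for PPO3 without overexpression replicate 2 or 3 or control replicate 1.

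Markers of the 2 blood cell types were uneven beside these values. Of the crystal cell markers, lz, the transcription factor gene that specifies crystal cells, measured 1.39, 0.993 and 1.71 FPKM in overexpression libraries, against 0.824, 0.708 and 0.691 FPKM in control libraries. It did not pass by limma (log2 fold change 0.43 ± 0.15, adjusted p = 0.124) and passed by limma-voom on the recovered reads (adjusted p = 0.0311). With means of 1.36 FPKM in overexpressing flies and 0.741 FPKM in controls, lz cleared the filter of 1 FPKM only through the overexpression group. Its tests are therefore not read as a rise. The other, peb, a zinc finger gene also active in other tissues, fell, with 6.84 ± 0.248 FPKM in overexpressing flies and 8.33 ± 0.0415 FPKM in controls (SD, n = 3, limma adjusted p = 0.0436), a call that 9 of 14 alternatives ended, among them leaving out any 1 of the 6 libraries, with adjusted p up to 0.146. Of the lamellocyte markers, ItgaPS4 was at 0.234 to 0.260 FPKM in overexpression libraries and 0.155 to 0.358 FPKM in control libraries. The other, atilla, averaged 141 ± 8.85 FPKM in overexpressing flies and 157 ± 2.03 FPKM in controls (limma adjusted p = 0.131). These 2 markers lay far apart in level, and the cells that the atilla RNA came from were not tested, so its level is not read as lamellocytes. The part of blood cell numbers in the prophenoloxidase values was not tested. In RNA from mixed tissues, fewer cells of a type and less RNA per cell cannot be told apart.

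The protease genes MP1 and Sp7 encode clip-domain serine proteases that flies need for melanization, and Sp7, also called MP2, acts near prophenoloxidase activation. Sp7 (chromosome 3R, 7759786 to 7763947, plus strand, 6 exon blocks) measured 44.1, 35.7 and 55.1 FPKM in overexpression replicates 1 to 3, against 30.9, 32.6 and 28.6 FPKM in control replicates 1 to 3. Every overexpression library was above every control library, as in 12.2% of all tested genes, and the overexpression libraries were again the more spread. Sp7 averaged 45.0 ± 9.77 FPKM in overexpressing flies and 30.7 ± 2.02 FPKM in controls (SD, n = 3).

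The log2 fold change of Sp7 was 0.52 ± 0.14 (SE), with a 95% interval of 0.20 to 0.84, and it did not pass after adjustment over all genes (limma adjusted p = 0.0588). It passed under 4 of 14 alternatives: limma-voom on recovered reads (adjusted p = 0.00921), a mean of at least 5 FPKM (0.0407), FPKM rescaled to a common total (0.0314) and without overexpression replicate 2 (0.0120). Its adjusted p ranged up to 0.138 over the 14 alternatives. The reads of Sp7 came out whole with a length of 1998 bp, where the current annotation gives 2372 bp, so the transcripts counted differ from the current ones.

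MP1 (chromosome 3R, 4307908 to 4309835, plus strand, 4 exon blocks) measured 67.2, 61.3 and 74.2 FPKM in overexpression replicates 1 to 3, against 68.4, 66.9 and 69.2 FPKM in controls. The control values lay inside the range of the overexpression values. Its log2 fold change was -0.02 ± 0.07, with a 95% interval of -0.18 to 0.15 (limma adjusted p = 0.921). In the current annotation all 1525 bp of MP1 exons lie under an exon of Vps24 on the other strand. Vps24 was counted over 1114 bp, the length of its shorter transcript, which overlaps 189 bp of MP1, and whether reads were counted by strand is not stated in the sources used here. Vps24 averaged 47.7 ± 3.09 FPKM in overexpressing flies and 43.7 ± 2.13 FPKM in controls (limma adjusted p = 0.310).

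Within a library, Sp7 was 0.656, 0.581 and 0.743 times MP1 in overexpression replicates 1 to 3, against 0.452, 0.487 and 0.413 times in control replicates 1 to 3. The groups did not overlap, as in 29.7% of all pairs of tested genes, with a log2 difference of 0.55 (exact two-sided permutation p = 0.1, the smallest possible). The 4 ratios computed were chosen within each role after the values of the members were known. Each had a p of 0.1 in this permutation test, so adjustment over the 4 could only return 0.1. Sp7, yellow-f2 and fon also separated the groups without a ratio.

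**Figure D2:**
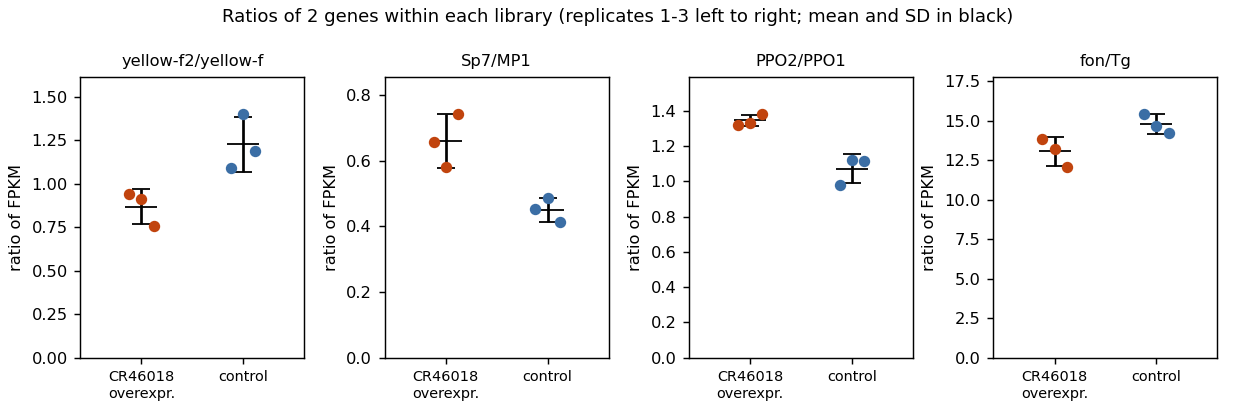
Ratio of the FPKM of 2 genes of like role within each library (y axes, starting at 0) in 3 CR46018 overexpression libraries (orange, left) and 3 control libraries (blue, right), with the mean and SD in black. The groups are apart in each panel: PPO2/PPO1 and Sp7/MP1 are higher in overexpressing flies, yellow-f2/yellow-f and fon/Tg lower. Over all pairs of tested genes above 0 in every library, the groups are apart in 29.7%.

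Of the other proteases and serpins of the cascade, 1 of 10 rose and 3 fell, with a median log2 fold change of 0.02. Limma called 2.45% of all tested genes higher and 6.31% lower. Spn28Dc, a serpin gene that restrains melanization, rose. It measured 66.4, 51.9 and 96.5 FPKM in overexpression replicates 1 to 3, against 30.2, 32.4 and 27.7 FPKM in controls (log2 fold change 1.18 ± 0.19 SE, limma adjusted p = 0.00881). In overexpressing flies its libraries stood in the order of Sp7, with replicate 3 highest and replicate 2 lowest, as did those of MP1 and yellow-f. Spn28Dc lies 4195 bp from Tg on chromosome 2L.

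The genes that fell were psh, modSP and SPE, proteases best known upstream of Toll. For psh the levels were 8.45 ± 0.190 FPKM in overexpressing flies and 13.1 ± 0.305 FPKM in controls (SD, n = 3, limma adjusted p = 0.00131). For modSP they were 19.8 ± 0.451 FPKM in overexpressing flies and 25.4 ± 1.12 FPKM in controls (adjusted p = 0.00935). SPE had the smallest change of the 3, at -0.26 on the log2 scale (adjusted p = 0.0490), and 10 of 14 alternatives ended its call, among them leaving out any library but overexpression replicate 1, with adjusted p up to 0.190.

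Neither Hayan nor Spn27A, named here after their values were seen because they act directly on the cascade, passed the test. Hayan, a protease gene that activates melanization, averaged 30.2 ± 0.513 FPKM in overexpressing flies and 27.9 ± 2.54 FPKM in controls (limma adjusted p = 0.398). Spn27A, whose serpin inhibits prophenoloxidase activation, averaged 57.7 ± 5.63 FPKM in overexpressing flies and 59.1 ± 5.40 FPKM in controls (log2 fold change -0.03, adjusted p = 0.867), and its sign turned with rescaling to a common total (0.0599).

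The pair yellow-f and yellow-f2 encodes enzymes that convert dopachrome, a step on the way from dopa to melanin. Both lie on chromosome 3R on the minus strand, yellow-f from 12991449 to 12993201 and yellow-f2 from 12993395 to 12995147, and each has 4 exon blocks. The start of yellow-f2 is 194 bp past the end of yellow-f. Of the 9 members only yellow-f2 changed by limma. It measured 21.5, 19.9 and 17.6 FPKM in overexpression replicates 1 to 3, against 27.6, 31.3 and 27.5 FPKM in control replicates 1 to 3. Each overexpression library was below each control library, as in 16.2% of all tested genes.

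The mean of yellow-f2 was 19.7 ± 1.95 FPKM in overexpressing flies and 28.8 ± 2.19 FPKM in controls (SD, n = 3). Its log2 fold change was -0.53 ± 0.09 (SE), with a 95% interval of -0.72 to -0.33 (limma adjusted p = 0.00855), and it kept its call in each of the 14 alternatives, with adjusted p from 0.000668 to 0.0326. These levels rest on 492 to 877 reads per library. Its neighbour yellow-f measured 22.9, 21.9 and 23.4 FPKM in overexpression replicates 1 to 3, against 25.3, 22.4 and 23.2 FPKM in controls. The groups overlapped, and the log2 fold change was -0.05 ± 0.06 (interval -0.20 to 0.09, adjusted p = 0.680).

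Set against each other, yellow-f2 was 0.941, 0.910 and 0.754 times yellow-f in overexpression replicates 1 to 3, against 1.09, 1.40 and 1.19 times in control replicates 1 to 3. So yellow-f2 was below yellow-f in each overexpression library and above it in each control library. Ratios did not overlap between the groups in 29.7% of all pairs of tested genes. The log2 difference was -0.50 (exact two-sided permutation p = 0.1, the smallest possible). How alike the sequences of this pair are was not analysed here, and reads of near-identical stretches could be divided between them. The exons of yellow-f share 95 bp with CG31342 on the other strand, which averaged 10.1 ± 0.713 FPKM in overexpressing flies and 9.01 ± 0.344 FPKM in controls (limma adjusted p = 0.251).

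**Figure D3:**
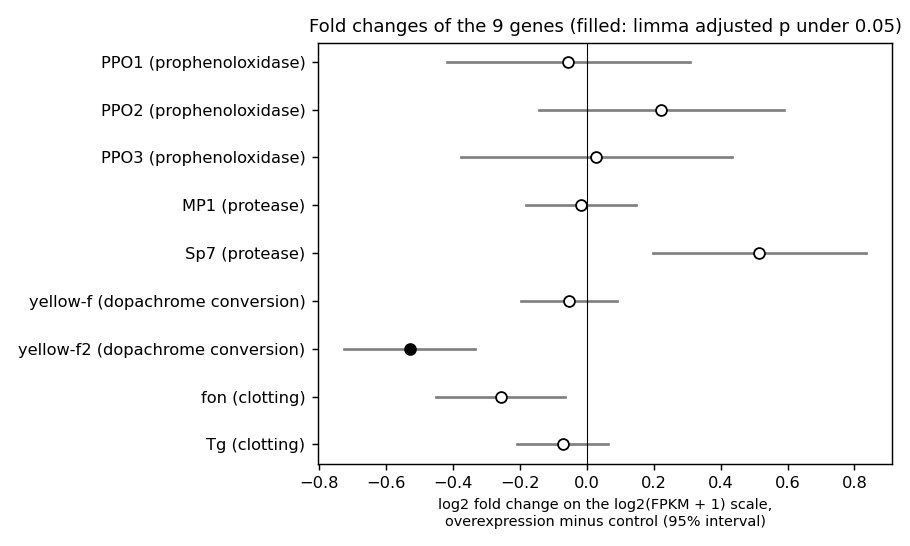
Fold change of each of the 9 genes on the log2(FPKM + 1) scale, CR46018 overexpression minus control (x axis), with the 95% interval of limma as a line. The filled point, yellow-f2 at -0.53, passed the adjusted threshold, and the intervals of Sp7 and fon also leave out 0 before adjustment over all genes.

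Among the 12 other genes of the yellow family, 6 passed the filter on low values and 0 of these were called by limma, with 3 at an unadjusted p under 0.05, as 23.5% of all tested genes were (median log2 fold change -0.17). The gene nearest the threshold, yellow-c, measured 16.5, 14.4 and 17.0 FPKM in overexpression libraries, against 23.8, 25.9 and 18.4 FPKM in controls (adjusted p = 0.0508). It passed by limma-voom (adjusted p = 0.00945), with a mean of at least 5 FPKM (0.0351) and without control replicate 3 (0.0113).

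Enzymes that supply and use dopa and dopamine went both ways, with 2 of 9 higher and 2 lower (median log2 fold change 0.01). Over all tested genes, 2.45% were called higher and 6.31% lower. Ddc, the dopa decarboxylase gene, rose: it measured 78.1, 60.7 and 147 FPKM in overexpression replicates 1 to 3, against 21.5, 30.7 and 22.5 FPKM in controls (log2 fold change 1.81 ± 0.29, limma adjusted p = 0.00851). Pu, which makes the cofactor of tyrosine hydroxylase, rose as well, with 159 ± 17.8 FPKM in overexpressing flies and 83.8 ± 15.7 FPKM in controls (adjusted p = 0.00695). Both stood highest in overexpression replicate 3 and lowest in replicate 2, the order of Sp7 and Spn28Dc and also of MP1 and yellow-f. How many of all genes stand in this order was not computed.

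The other changes in that list were falls. The gene speck, an acetyltransferase of dopamine, averaged 52.7 ± 0.906 FPKM in overexpressing flies and 67.7 ± 3.52 FPKM in controls (limma adjusted p = 0.00744). Hn, the phenylalanine hydroxylase gene that supplies tyrosine, averaged 64.0 ± 6.10 FPKM in overexpressing flies and 86.4 ± 5.45 FPKM in controls (adjusted p = 0.0152), and lost its call without overexpression replicate 3 or control replicate 1 or 2, with adjusted p up to 0.0588. The tyrosine hydroxylase gene ple did not pass (adjusted p = 0.407), and it passed without overexpression replicate 2 (log2 fold change 0.61, adjusted p = 0.0337).

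**Figure D4:**
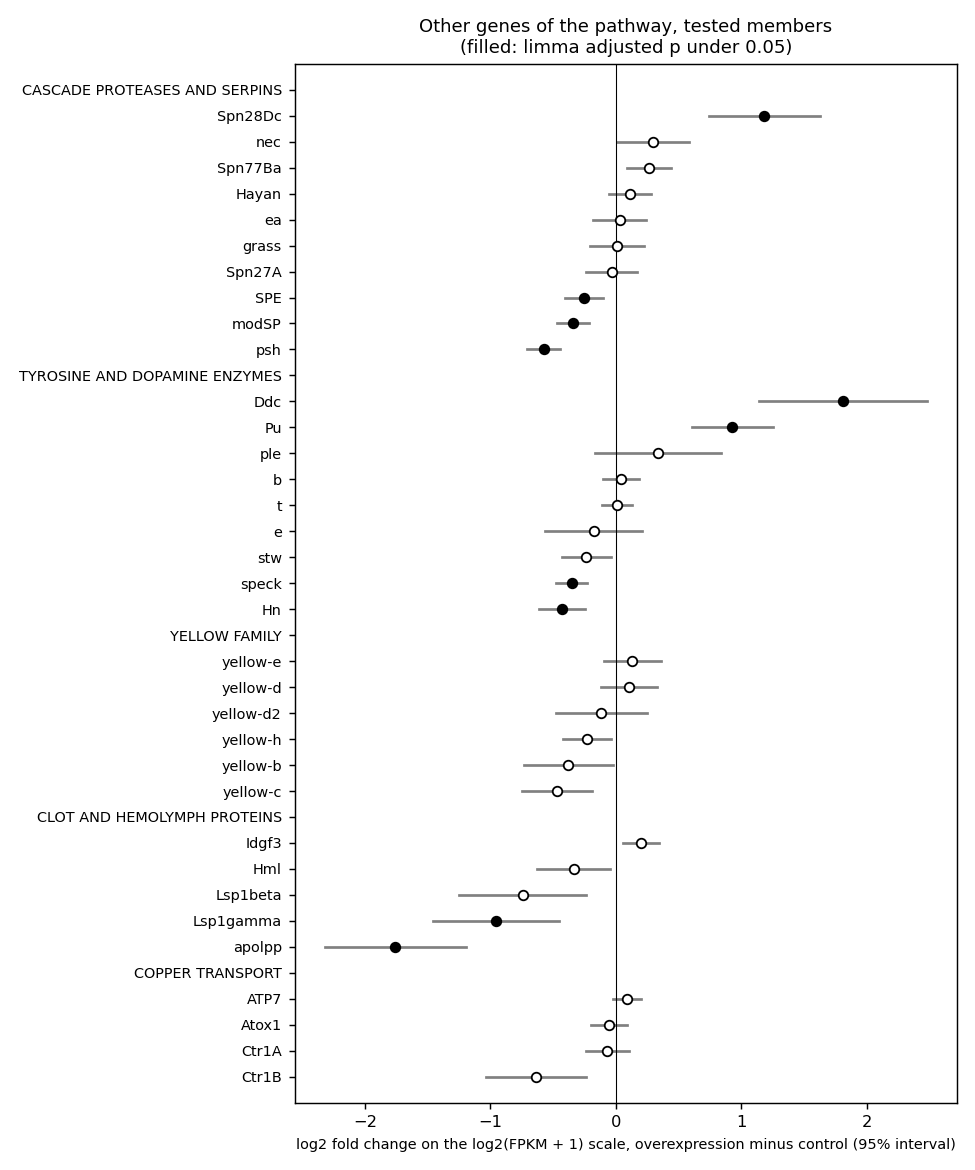
Fold change of the tested genes of 5 lists around the members, on the log2(FPKM + 1) scale, CR46018 overexpression minus control (x axis), with the 95% interval of limma. Filled points passed an adjusted p under 0.05: Spn28Dc, Ddc and Pu lie to the right of 0, and psh, modSP, SPE, speck, Hn, Lsp1gamma and apolpp to the left. Lsp1beta and Lsp1gamma passed the filter on low values only through the control group.

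The clotting genes fon and Tg did not pass by limma. The gene fon (chromosome 2L, 19383138 to 19386205, minus strand, 5 exon blocks) encodes fondue, a secreted protein of the larval clot, and was the most abundant member. It measured 148, 134 and 118 FPKM in overexpression replicates 1 to 3, against 168, 157 and 151 FPKM in control replicates 1 to 3. The groups did not overlap, although overexpression replicate 1 lay close to the lowest control. The means were 133 ± 14.6 FPKM in overexpressing flies and 159 ± 8.43 FPKM in controls (SD, n = 3).

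For fon the log2 fold change was -0.26 ± 0.08 (SE), with a 95% interval of -0.45 to -0.06 (limma adjusted p = 0.106). It passed by limma-voom on recovered reads (adjusted p = 0.0357) and without overexpression replicate 1 (log2 fold change -0.33, adjusted p = 0.0487), and its adjusted p ranged up to 0.271 over 14 alternatives. Rescaling FPKM to a common total gave a log2 fold change of -0.162. Counting error was 1.29% of the mean of the overexpression libraries, whose coefficient of variation was 11.0%.

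Tg (chromosome 2L, 8011405 to 8026898, plus strand, 4 exon blocks) encodes the transglutaminase that links clot proteins. It measured 10.6, 10.1 and 9.80 FPKM in overexpression replicates 1 to 3, against 10.9, 10.7 and 10.6 FPKM in controls. The groups touched at 10.6 FPKM and overlapped there, and Tg varied the least of the members among control libraries, with a coefficient of variation of 1.07%. The log2 fold change was -0.07 ± 0.06 (interval -0.21 to 0.06, limma adjusted p = 0.523). The ratio of fon to Tg was 13.9, 13.2 and 12.1 in overexpression replicates 1 to 3, against 15.5, 14.7 and 14.2 in controls, a log2 difference of -0.18 (exact two-sided permutation p = 0.1, the smallest possible). The groups did not overlap, as in 29.7% of all pairs of tested genes.

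Of 9 other clot and hemolymph proteins, 5 were tested, and 0 rose and 2 fell (median log2 fold change -0.74), where 6.31% of all tested genes fell. Among those tested, Lsp1beta and Lsp1gamma passed the filter on low values only through the control group, which tilts this list towards falls. The median is the value of Lsp1beta, at 0.619 FPKM in overexpressing flies and 1.71 FPKM in controls. Neither the count nor the median is read as a fall of the list. The lipoprotein gene apolpp measured 32.9, 42.1 and 20.1 FPKM in overexpression libraries, against 130, 91.5 and 98.0 FPKM in controls (log2 fold change -1.76 ± 0.24, limma adjusted p = 0.00478). Lsp1gamma, a larval storage protein gene, averaged 0.738 ± 0.377 FPKM in overexpressing flies and 2.38 ± 0.793 FPKM in controls (adjusted p = 0.0335), and lost its call in 5 of 13 alternatives, namely no filter and without overexpression replicate 1 or 3 or control replicate 1 or 2, with adjusted p up to 0.107. The clotting gene Hml, also a marker of plasmatocytes, the phagocytic blood cells, measured 27.3, 21.1 and 18.3 FPKM in overexpression replicates 1 to 3, against 28.7, 26.8 and 28.4 FPKM in controls (adjusted p = 0.152). It passed by limma-voom (adjusted p = 0.0438) and without overexpression replicate 1 (adjusted p = 0.0162). Its overexpression libraries stood in the order of those of fon, an order that PPO1, PPO2, yellow-f2 and Tg share. How many of all genes share it was not computed.

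Several markers of blood cells, fat body and muscle fell beside these values, where limma called 2.45% of all tested genes higher and 6.31% lower. Of 9 plasmatocyte markers, 8 were tested, and 0 rose and 3 fell (median log2 fold change -0.33). Their summed level, mostly Nplp2, was 467 to 690 FPKM in overexpression libraries and 1348 to 1643 FPKM in control libraries. Over the 6 libraries Nplp2 averaged 948 FPKM and crq, the next highest, 38.7 FPKM. The cells that the Nplp2 RNA came from were not tested, so neither its level nor the sum is read as plasmatocytes. The 5 tested markers not called by limma were Hml, eater, Pxn, crq and srp. Their log2 fold changes ran from -0.336 in Hml (limma adjusted p = 0.152) to 0.00181 in srp (adjusted p = 0.994). NimC1, a phagocytosis receptor gene, was at 2.32 ± 0.251 FPKM in overexpressing flies and 4.93 ± 0.198 FPKM in controls (limma adjusted p = 0.00172). The others that fell were Nplp2 (log2 fold change -1.42, adjusted p = 0.00188) and Sr-CI (-0.77, adjusted p = 0.0415), of which Sr-CI lost its call in 6 of 14 alternatives, among them leaving out overexpression replicate 2 or any control library, with adjusted p up to 0.107. Of 5 fat body markers, 3 were tested, and 0 rose and 2 fell. These were apolpp, also counted among the clot and hemolymph proteins, and the fatty acid synthase gene FASN1 (log2 fold change -0.91, limma adjusted p = 0.00191). The summed level of the 5 markers was 96.6 to 128 FPKM in overexpression libraries and 233 to 305 FPKM in control libraries. Markers of muscle fell too, 2 of 3 (median log2 fold change -0.42): Act88F averaged 114.7 ± 4.31 FPKM in overexpressing flies and 190 ± 54.1 FPKM in controls (adjusted p = 0.0432), and Mhc 122 ± 4.09 FPKM in overexpressing flies and 165 ± 25.7 FPKM in controls (adjusted p = 0.0487). Act88F lost its call in 7 of 14 alternatives, among them leaving out any overexpression library or control replicate 2, and Mhc in 9 of 14, among them leaving out any library but control replicate 3, with adjusted p up to 0.115 and 0.143. Of the oenocyte markers 0 of 3 were called by limma, also at an unadjusted p under 0.05. Among them, Fad2 was high in overexpression replicate 1 only, at 7.78 FPKM from 210 reads. It was at 0 FPKM in overexpression replicates 2 and 3, and at 0.0792, 0 and 0.0435 FPKM in control replicates 1 to 3. The part of these cell types in the values of yellow-f2, fon and the prophenoloxidase genes was not tested.

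**Figure D5:**
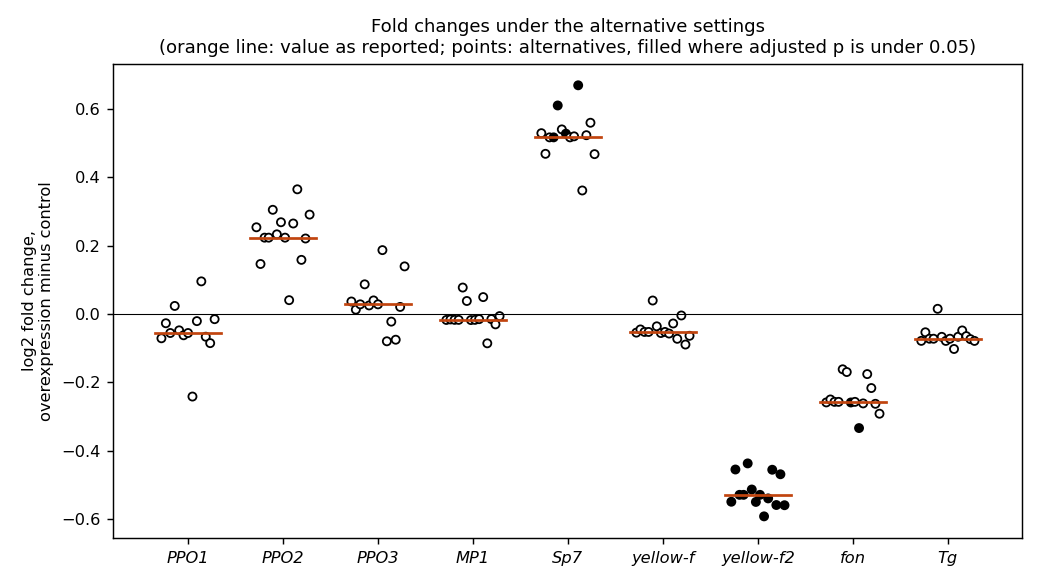
Log2 fold change of each of the 9 genes, CR46018 overexpression minus control (y axis), as reported (orange line) and under each alternative setting (points, filled where the adjusted p was under 0.05). Points of yellow-f2 are filled throughout, between -0.59 and -0.44, those of Sp7 in 4 of 14 and those of fon in 2 of 14.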

How the data were processed

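The authors purified mRNA with poly-T beads, aligned paired-end reads with HISAT2 2.0.5, obtained gene counts from featureCounts 1.5.0-p3 and used DESeq2, per the labels' protocols. The build was dm6, per the submitters' processing notes. The deposited values are FPKM, 1 column per library. The conversion of counts to FPKM, the annotation release and the strand setting are not stated in the sources used here.

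Multiplied by exonic length (Ensembl release of dm6), FPKM of 97.6% of 15683 genes above 0 gave whole reads in all 6 libraries within 0.01 reads. For genes with at least 100 reads, the shortest length giving whole reads named 171 of 306 outdated identifiers, PPO1 among them, and gave lengths for 267 further genes, including MP1 and Sp7. The authors' scaling followed read totals within 4.3%.

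Genes with a mean of at least 1 FPKM were fitted in limma 3.58.1 (R 4.3.3; lmFit and eBayes with trend, two-sided) on log2(FPKM + 1), a scale that understates changes of low genes, with Benjamini-Hochberg adjustment over all genes and a threshold of 0.05. The fit was tested on simulated data. Intervals are at 95%. Counting errors cover counting only.

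The members and lists were chosen with earlier results of these data known. The text names the 9 members and, from each list, up to 3 called genes with the smallest p. Other named genes were chosen after their values were seen. Alternatives were other pseudocounts, filters and scalings, limma-voom on recovered reads, a replicate block and leaving out each library.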

Additional observations from a re-analysis of the deposited data

How the results depend on the processing

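Among 14 alternatives, yellow-f2 kept its direction and its call, and Sp7, fon and PPO2 kept their direction. The count of members called higher, 0 as reported, was 1 (Sp7) with a mean of at least 5 FPKM, with rescaling to a common total and with limma-voom, and 0 to 1 when 1 library was left out. The count called lower, 1 as reported, was 2 with limma-voom and 1 to 2 when 1 library was left out. Over all tested genes, 300 were higher and 773 lower as reported. Rescaling gave 826 higher and 484 lower, so that 63.1% of calls were higher against 27.96%, and gave a median over all genes of 0.08 in place of 0.00. With limma-voom, 488 were higher. Leaving out 1 library gave 135 to 286 higher and 428 to 628 lower, fewest without overexpression replicate 3, which leaves fewer samples.

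Signs turned with rescaling for PPO1 (0.0236), MP1 (0.0773), yellow-f (0.0394), Tg (0.0152) and Spn27A (0.0599), and with quantile normalization for MP1 (0.0380) and Spn27A (0.0145). With 1 library left out, log2 fold changes were -0.241 to 0.0954 for PPO1, -0.0797 to 0.187 for PPO3, -0.0856 to 0.0494 for MP1 and -0.102 to 0.0388 for Spn27A. For these the cause was not tested. PPO1 and PPO3 have no value with a mean of at least 5 FPKM.

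With the replicate number as a block, 219 genes were higher and 616 lower, and the members' calls were as reported. Same-numbered libraries did not deviate together: the correlations of their deviations from the group means were 0.046, -0.076 and 0.026 for numbers 1 to 3. The quasi-likelihood count test on recovered reads, listed as an alternative, was not run, and limma-voom was run on the same reads. Counting error was largest for PPO3 among the members, at 11.9% in overexpression libraries and 12.5% in control libraries. The coefficients of variation of PPO3 there were 29.9% and 24.6%, and the part of depth in this spread was not tested.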

Other observations

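Phenoloxidases are copper enzymes. Of 4 copper transport genes, 0 were called by limma, with 1 at an unadjusted p under 0.05, where 23.5% of all tested genes were under it. That gene was Ctr1B, a copper importer gene. It measured 18.2, 16.1 and 16.9 FPKM in overexpression replicates 1 to 3, against 33.9, 29.8 and 19.5 FPKM in controls (log2 fold change -0.64 ± 0.17, limma adjusted p = 0.0617). Each overexpression library was below each control library, as in 16.2% of all tested genes. Without control replicate 3 the log2 fold change of Ctr1B was -0.86 (adjusted p = 0.00424). It also passed by limma-voom (adjusted p = 0.0131), with a mean of at least 5 FPKM (0.0424) and with a replicate block (0.0441). Its adjusted p ranged up to 0.174 over 14 alternatives. ATP7 separated the groups the other way, as 12.2% of all tested genes did. It averaged 24.8 FPKM in overexpressing flies and 23.3 FPKM in controls (limma adjusted p = 0.320).

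For each member, the gene with the most similar profile was sought among those with a mean of at least 10 FPKM, by Pearson's r of log2(FPKM + 1) over the 6 libraries. The points share the 2 groups and the library scaling, so r is given as a description. The closest was Spp for fon (r = 0.999), CG42788 for yellow-f2 (0.994), betaTub60D, a tubulin gene, for Sp7 (0.991) and CG14380 for PPO2 (0.995), and the lowest of the 9 was CG10576 for PPO1 (0.970). Of 6703 genes compared, 211 had an r above 0.95 with yellow-f2, and of 6704 compared, 5 had one with PPO1.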
